A study of Mus musculus with 6 samples.

Results

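Ccl3, Ccl4, Il15, Cd28 and Cd69 are 5 genes of immune cell activation that were chosen from the results of these arrays: their transcripts were lower in Lhx2 cells given transforming growth factor β1 (TGF-β1) than in untreated cells, and Ccl3 was taken along as the genomic neighbour of Ccl4. They are 5 of the 29163 genes and transcripts that could be tested, and each is read by 1 probe, found through its RefSeq accession. Lhx2 cells are mouse blood progenitor-like cells that proliferate because they carry the LIM-homeobox gene Lhx2 as an introduced gene. Treated cells received TGF-β1 (10 ng/ml, 2 h) and untreated cells none, with 3 arrays per group from 3 RNA harvests numbered alike in both groups. All cells grew with mouse stem cell factor and human interleukin 6 and were starved of serum overnight, with bovine serum albumin in its place. The values therefore describe 1 line in culture, at 1 dose and 1 time. Precision is limited by there being 3 arrays a group.

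CCL3 and CCL4 (MIP-1α and MIP-1β) are secreted chemokines that draw leukocytes to sites of inflammation. Interleukin 15 is a survival cytokine for natural killer cells and memory T cells, presented to neighbouring cells by its receptor chain IL-15Rα and read through IL-2Rβ and the common γ chain. CD28 is the co-stimulatory receptor of T cells for CD80 and CD86, and CD69 is an early activation receptor that pulls the sphingosine 1-phosphate receptor S1PR1 from the cell surface. TGF-β is known as a suppressor of lymphocyte activation.

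Ccl3 and Ccl4 lie next to each other on mouse chromosome 11. The RefSeq promoter table (GRCm38.p6) held an entry for 1 of the 5 genes, Ccl3, and the 250 bases before its annotated start are shown because the neighbouring pair had the greatest falls of the 5. The stretch is chr11:83649379-83649628 on the minus strand, and capitals mark TATAA on either strand.
Ccl3 promoter: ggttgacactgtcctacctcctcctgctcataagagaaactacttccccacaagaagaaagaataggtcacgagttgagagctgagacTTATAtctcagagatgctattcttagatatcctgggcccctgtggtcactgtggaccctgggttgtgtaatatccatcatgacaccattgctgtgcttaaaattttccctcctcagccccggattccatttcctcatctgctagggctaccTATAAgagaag
TATAA was found at -11 to -7 on the gene's strand and at -162 to -158 on the other, counted from the annotated start, and 22.8% of the 32851 promoter windows of this length held it. The SMAD box CAGAC, the AP-1 motif TGANTCA, the GATA motif AGATAA and the NF-κB motif were searched on both strands and had no match in this window. They occur in 42.2%, 6.7%, 10.0% and 7.3% of all such windows, in that order. No searched motif overlapped another here.

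The chemokine Ccl3 had a background-corrected signal of 650.7, 1410 and 2473 intensity units in TGF-β1 harvests 1, 2 and 3, against 3607, 4913 and 4462 in untreated harvests 1, 2 and 3. Each treated array was below every untreated array, and the treated arrays were spread over a wider range than the untreated ones. Relative to the 75th percentile of its array, the level averaged 0.44 ± 0.85 log2 units in treated cells and 2.26 ± 0.25 in untreated cells (SD, n = 3 each). The difference was -1.83 (SE 0.42), a 3.54-fold lower level. By harvest it was -2.44, -1.81 and -1.23, the widest spread of harvest differences among the 5 members. In RNA of whole cultures a fall in the number of cells that express a gene and a fall in RNA per cell cannot be told apart.

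Ccl4, its neighbour, had a signal of 510, 576.5 and 751.7 in TGF-β1 harvests 1, 2 and 3, against 1872, 1287 and 1876 in untreated harvests 1, 2 and 3. The groups did not overlap. Its level averaged -0.68 ± 0.20 in treated and 0.89 ± 0.46 in untreated cells (SD, n = 3 each), a difference of -1.57 (SE 0.25) or 2.97-fold lower. Harvest differences of -1.85, -1.16 and -1.70 put the smallest fall in harvest 2, whereas for Ccl3 it was in harvest 3. The next genes along the chromosome are the chemokines Ccl6 and Ccl9, which had log2 differences of -0.32 (SE 0.24, adjusted p = 1 by limma) and -0.30 (SE 0.14, adjusted p = 0.97). On the other side Wfdc17 was not tested, and Wfdc18 had 0.11 (SE 0.54, adjusted p = 1).

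Il15 encodes the one interleukin among the 5. Its signal was 280.5, 394.9 and 397.2 in TGF-β1 harvests 1, 2 and 3, against 610.6, 812.5 and 617.8 in untreated harvests 1, 2 and 3. These groups did not overlap either, and the harvests gave nearly the same change of -1.09, -1.05 and -1.01. The level averaged -1.46 ± 0.17 in treated and -0.41 ± 0.14 in untreated cells (SD, n = 3 each), a difference of -1.05 (SE 0.15) or 2.07-fold lower. The SD of the 3 harvest differences was 0.0396 for Il15 and 0.607 for Ccl3. The nearest tested neighbours of Il15 on chromosome 8 had 0.49 (Inpp4b, SE 0.17, adjusted p = 0.7) and -0.13 (Zfp330, SE 0.14, adjusted p = 1).

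Cd28, the co-stimulatory receptor, was read from a dim probe with 10 spots on each array. The mean background-corrected signal of the spots was 31.9, 39.98 and 39.38 in TGF-β1 harvests 1, 2 and 3, against 87.7, 86.17 and 87.3 in untreated harvests 1, 2 and 3. Before correction the median spot signal was 67.25 to 78.56 in treated and 120.8 to 127.2 in untreated cells. The local background beside the spots was 28.85 to 30.94 in treated and 27.56 to 30.2 in untreated cells. After correction the used spots of treated arrays ran up to 43.57 and those of untreated arrays started at 80.48, so the groups were apart spot by spot. The 10 spots of an array read the same RNA sample and are not replicates of the treatment. The level averaged -4.72 ± 0.07 in treated and -3.36 ± 0.18 in untreated cells (SD, n = 3 each). The difference was -1.36 (SE 0.14), a 2.56-fold lower level, with -1.43, -1.12 and -1.53 by harvest. The difference was -0.80 in the authors' deposited matrix values and -0.75 with normexp background correction of the median signal, and the cause of these smaller sizes was not tested.

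**Figure D1:**
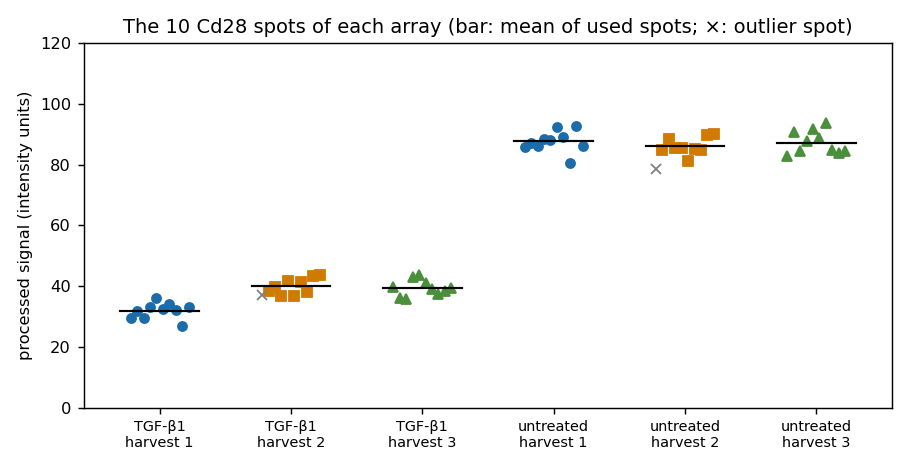
Background-corrected signal (intensity units) of the 10 Cd28 spots on each TGF-β1 array (left) and untreated array (right), with the mean of the used spots as a bar and outlier spots as crosses. Used spots end at 43.57 in treated cells and begin at 80.48 in untreated cells.

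Cd69, the early activation receptor, gave signals of 186.8, 166.9 and 325.5 in TGF-β1 harvests 1, 2 and 3, against 447.6, 401.1 and 661 in untreated harvests 1, 2 and 3. Harvest 3 was the highest in both groups, and the groups were apart by 0.34 log2 units, less than for the other members. The level averaged -2.16 ± 0.47 in treated and -0.86 ± 0.54 in untreated cells (SD, n = 3 each), a difference of -1.30 (SE 0.34) or 2.46-fold lower. Within harvests the difference was steady at -1.23, -1.27 and -1.40. The SE with the replicate number as a block was 0.11.

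**Figure D2:**
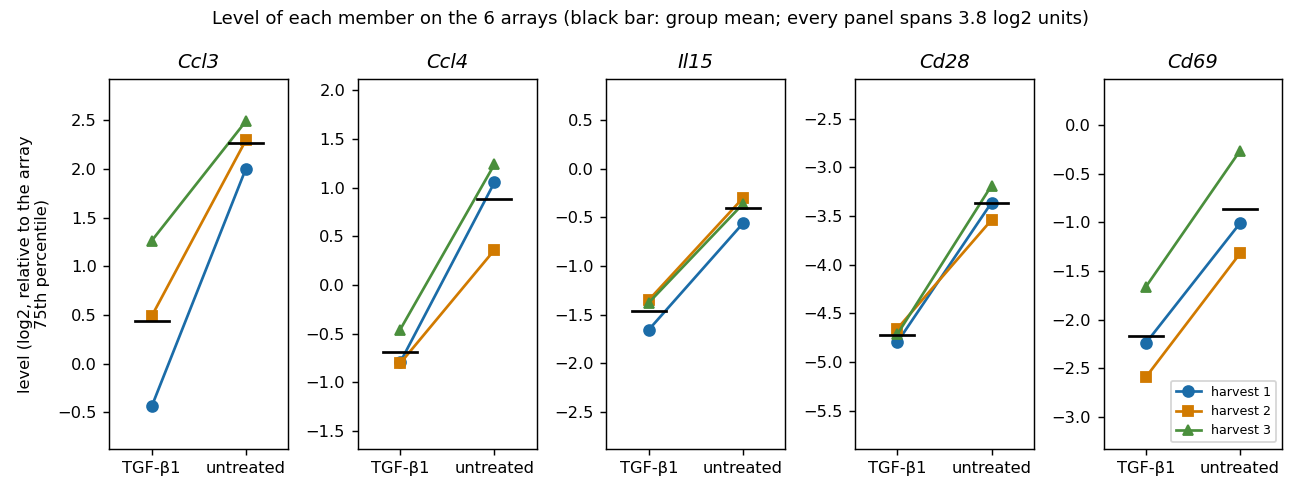
Level of each gene (log2, relative to the array's 75th percentile) on the TGF-β1 arrays (left of each panel) and the untreated arrays (right), with lines joining arrays of one harvest and black bars for group means. All lines go up to the untreated side, and those of Cd69 and Il15 run nearly parallel.

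All 5 genes were lower in each of the 3 harvests, and the share of all genes lower in each harvest was not counted. None of the 5 had overlapping groups. Of all tested genes 5.05% had groups that did not overlap in that direction and 5.37% in the other. In the limma fit over all genes 1 of the 5, Cd28, was called lower at an adjusted p under 0.05, against 0.0274% of all tested (0.254% in either direction). Blocking on the replicate number gave 4 calls, namely Ccl4, Il15, Cd28 and Cd69, against 0.12% of all tested (0.672% in either direction). Since the 5 were chosen for this contrast, these counts describe the choice and are not tests. The arrays lay on 2 slides, with harvest 1 on slide 1, harvest 2 on slide 2 and harvest 3 on both. Within slide 1 the differences were -2.69 for Ccl3, -1.94 for Ccl4, -1.19 for Il15, -1.52 for Cd28 and -1.60 for Cd69. Within slide 2 they were -1.42, -0.99, -1.06, -1.15 and -0.81 for the same genes in that order, all in the same direction. Slide 1 held TGF-β1 harvest 1 and untreated harvests 1 and 3, and slide 2 held TGF-β1 harvests 2 and 3 and untreated harvest 2. Each within-slide difference thus rests on a lone array in 1 group and does not keep the harvests paired.

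**Figure D3:**
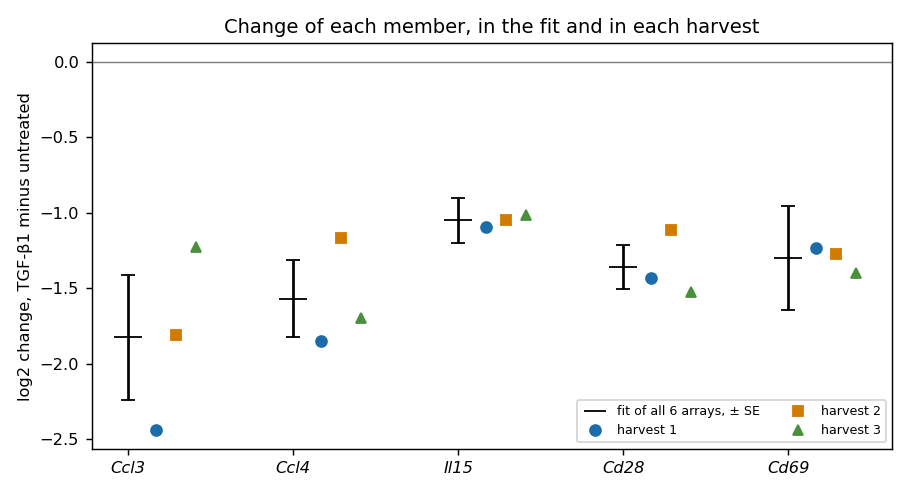
Log2 difference of each gene, TGF-β1 minus untreated, from all 6 arrays (black bar ± SE) and in each harvest (coloured points). Il15 and Cd69 differ least between harvests, with SDs of 0.0396 and 0.0872, and Ccl3 most, with 0.607.

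The mean level of each gene in a harvest, over both treatments, is a measure that the choice did not use. The test of it is not wholly apart from the choice. It is scaled by the spread of the TGF-β1 minus untreated differences over harvests, the values from which the members were chosen. A moderated F-test by limma over the 3 harvests had treatment in the model. It called 3.11% of all genes and 0 of the 5 members at an adjusted p under 0.05. Ccl3 and Cd69 had an unadjusted p under 0.05. How many of all genes did so was not counted, so this does not set the 2 apart. Cd69 came nearest: its harvest means were -1.63, -1.96 and -0.96 log2 units in harvests 1, 2 and 3 (adjusted p = 0.0575 by limma). Harvest 3 was also higher within slides, above harvest 2 by 0.93 among treated cells on slide 2 and harvest 1 by 0.74 among untreated cells on slide 1. Over 13 other settings its adjusted p ran from 0.0243 to 0.355, and it passed in 6. In 3 of these a few percent of all genes passed too: slide as a block (adjusted p = 0.0354, 4.59% of all genes), quantile normalization (0.0342, 4.51%) and only probes well above background on all 6 arrays (0.0383, 3.72%). In the other 3 much of the array passed: normexp (0.0243, 54.6% of all genes), without TGF-β1 replicate 3 (0.0265, 22.7%) and without untreated replicate 3 (0.0294, 28.5%).

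Ccl3 had harvest means of 0.78, 1.39 and 1.88 (adjusted p = 0.223). It passed without untreated replicate 3 (adjusted p = 0.0419), where 28.5% of all genes did. For Ccl4 the means were 0.13, -0.22 and 0.39 (adjusted p = 0.268) and for Il15 -1.11, -0.83 and -0.87 (adjusted p = 0.329). Cd28 had the narrowest range over harvests, with -4.08, -4.10 and -3.95 (adjusted p = 0.716), and passed with normexp (adjusted p = 0.0243), where 54.6% of all genes did. Of 33 other chemokine ligand and receptor genes, 3 were called between harvests. Ccl2 averaged 1.84, 1.65 and -1.58 (adjusted p = 0.00215), Ccl7 0.05, 0.44 and -5.37 (adjusted p = 0.00102) and the receptor Ccr2 1.34, 1.21 and 2.72 (adjusted p = 0.0344), so harvest 3 was lowest for these chemokines and highest for their receptor. The other list genes called were Cd27 (adjusted p = 0.0324), Tnfrsf9 (0.0109) and Tnfsf9 (0.0486), all of the CD28 ligand and co-receptor list.

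Marker genes of mature blood cells moved with the harvest too. Of 7 tested granulocyte markers 3 were called (Ltf, S100a8 and S100a9), and their list averaged 3.25, 3.90 and 4.46 in harvests 1, 2 and 3, the same order as Ccl3. Of 9 macrophage and dendritic cell markers 4 were called (Cd74, Csf1r, H2-Ab1 and Mrc1), with list means of 0.42, -0.29 and -0.16. Of 5 natural killer cell markers 1 was called (Gzmb), and none of the T cell, B cell, mast cell or progenitor markers. Their part in the harvest levels of Cd69 and Ccl3 was not tested.

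For every marker list the ranges of treated and untreated arrays overlapped. T cell markers averaged -2.54 to -2.21 over treated arrays and -2.52 to -2.10 over untreated arrays, with 11 of 12 tested, and natural killer cell markers -2.49 to -1.95 over treated arrays and -2.20 to -1.69 over untreated arrays, with 5 of 8 tested. Granulocyte markers ran from 3.32 to 4.38 in treated and from 3.18 to 4.55 in untreated cells, and macrophage and dendritic cell markers from -0.31 to 0.41 in treated and from -0.27 to 0.42 in untreated cells. Taken by harvest, the natural killer cell list differed by -0.33, -0.26 and -0.29 in harvests 1, 2 and 3. All 5 tested markers had a negative mean difference, but only 2 were lower in all 3 harvests. Gzmb weighed most in the list, with -1.06, -0.63 and -0.91 by harvest, whereas Nkg7 had 0.15, 0.18 and -0.36. Gzmb, the granzyme B gene, had -0.87 (SE 0.94, adjusted p = 1, and 0.0902 with the replicate block) and Klrb1c, which encodes the NK1.1 antigen, -0.36 (SE 0.17, adjusted p = 0.962), each lower in all 3 harvests. The macrophage and dendritic cell list was near 0 in each harvest, at -0.02, -0.04 and -0.04. Of its 9 tested markers, 3 were lower and 2 higher in all 3 harvests. The mast cell and basophil list had -0.15, -0.22 and 0.06, and of its 7 tested markers 4 were lower and 0 higher in all 3 harvests. The means of the remaining lists went both ways too. How many of all tested genes kept 1 sign in all 3 harvests was not counted, so the marker counts have no share to be set against. The part of these cells in the members' values was not tested. The natural killer cell markers Gzma, Klrk1 and Ncr1 were not well above background on any array. Among T cell markers, Lat, an adaptor of T cell receptor and mast cell signalling that was singled out after its values were seen, had 1.25 (SE 0.25, adjusted p = 0.193, and 0.0347 with the replicate block). The other 10 passed neither fit. The brightest markers were Thy1 of T cells at -0.22 (SE 0.18), Nkg7 of natural killer cells at -0.01 (SE 0.18), Cd79b of B cells at -0.13 (SE 0.26), Adgre1 of macrophages at -0.08 (SE 0.17), Cpa3 of mast cells at -0.37 (SE 0.24) and Mpo of granulocytes at -0.02 (SE 0.12), each with an adjusted p of 1. Progenitor markers went both ways and none of the 8 passed either fit: Cd34 had 0.39 (SE 0.14, adjusted p = 0.675), Gata2 0.76 (SE 0.25, adjusted p = 0.626), Kit -0.46 (SE 0.24, adjusted p = 1) and Il6st -0.64 (SE 0.36, adjusted p = 1), each with 1 sign in all 3 harvests. The defining T cell markers Cd3e, Cd3d and Cd3g were well above background on all 6 arrays, with mean levels of -0.55, -4.90 and -4.58. On each array 82.8% to 90.3% of all probes were well above background too. Kit and Gata2 were well above background on all 6 arrays, as was the dim probe for Lhx2, with -4.55, -4.32 and -3.86 in treated and -4.28, -4.05 and -4.54 in untreated cells.

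The wider pathways around the 5 genes were read from 7 lists with 123 tested genes other than the members. Of these, 1 was higher and 0 lower without the block (19 had an unadjusted p under 0.05), and 4 were higher and 1 lower with the replicate block. An unadjusted p under 0.05 was found for 15.4% of the list genes and for 5.77% of all tested genes, and list genes are not independent of each other. The lists were chosen with earlier results of these data known, so these shares are a description and not a test. The call rate over all tested genes was 0.226% higher and 0.0274% lower without the block, and 0.552% higher and 0.12% lower with it. The median log2 difference of the 123 genes was 0.02, against -0.01 for all tested genes.

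**Figure D4:**
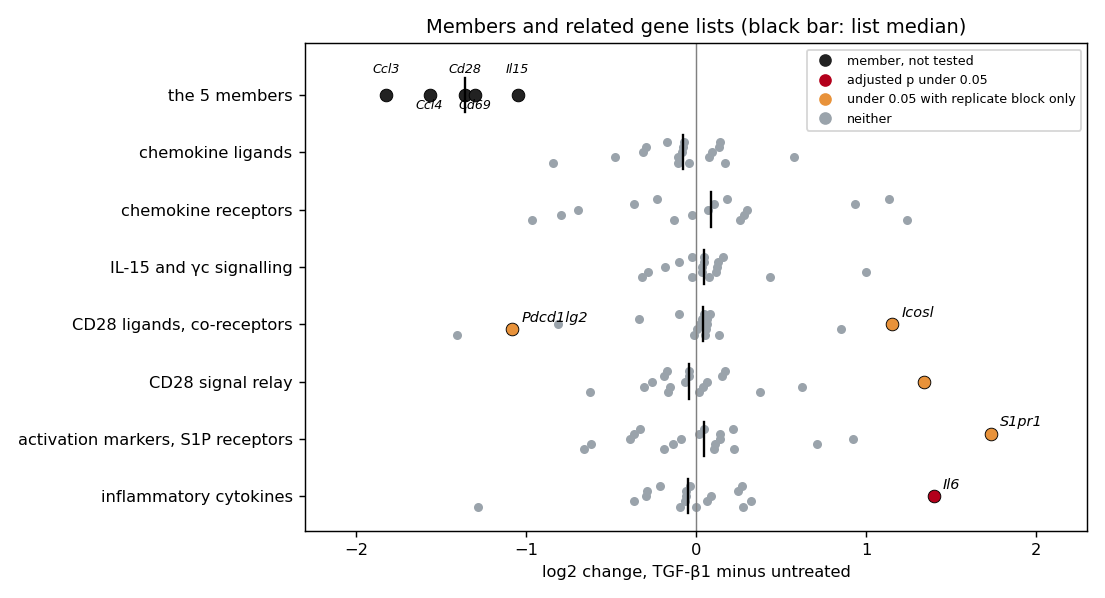
Log2 difference, TGF-β1 minus untreated, of the 5 genes (top row, shown without a test) and of the genes of 7 related lists, with list medians as black bars. List medians lie between -0.08 and 0.09, and coloured points mark the genes that passed in either fit, among them Il6, S1pr1, Icosl and Pdcd1lg2.

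The gene that passed without the block was Il6, the inflammatory cytokine that the culture also receives as human protein. Its level was 0.22, 0.44 and 0.46 in TGF-β1 harvests 1, 2 and 3, against -1.12, -0.79 and -1.15 in untreated harvests 1, 2 and 3. Each treated array was above each untreated array, and Il6 rose 2.63-fold (log2 difference 1.40, SE 0.16, adjusted p = 0.037 by limma, and 0.0363 with the replicate block). The call was lost whichever single array was left out, with adjusted p between 0.0695 and 0.243, and with normexp (0.393). It was also lost with no filter on dim probes (0.0532) and in pairs 1 and 2 alone with the replicate block (0.0521). The range over 15 alternatives was 0.0206 to 0.393. Other inflammatory cytokines did not pass: of 18 tested, Tnf had -0.30 (SE 0.19), Il1b -1.28 (SE 0.56), Mif -0.04 (SE 0.24) and Spp1 -0.06 (SE 0.16).

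Ccr1, a receptor for CCL3, was read from a dim probe and had -0.80 (SE 0.56, adjusted p = 1). None of 16 chemokine receptors and none of 17 other chemokine ligands passed with or without the block, and the medians were 0.09 and -0.08. The brightest receptors were Cxcr4 at 0.30 (SE 0.32) and Ccr2 at -0.70 (SE 0.55).

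Partners of interleukin 15 did not pass. Il15ra, its presenting chain, had -0.32 (SE 0.12, adjusted p = 0.783), Il2rb 0.04 (SE 0.24, adjusted p = 1) and the common γ chain gene Il2rg -0.28 (SE 0.21, adjusted p = 1). In all, 0 of 17 tested genes of this pathway passed in either fit, and the median was 0.04. The kinase gene Jak1 had -0.03 (SE 0.17) and Socs3, a feedback inhibitor of cytokine signalling, -0.10 (SE 0.24).

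Of 18 tested ligands and co-receptors around CD28, none passed without the block and Icosl and Pdcd1lg2 passed with it, in opposite directions. Icosl, the ligand of the CD28-related receptor ICOS, had a level of 0.24, 0.04 and -0.14 in TGF-β1 harvests 1, 2 and 3, against -1.06, -1.08 and -1.17 in untreated harvests 1, 2 and 3, a difference of 1.15 (SE 0.15, adjusted p = 0.0528). With the replicate block it rose (adjusted p = 0.0403), and over 15 alternatives the adjusted p ran from 0.00763 to 0.58. A dimmer Icosl probe had 0.51 (SE 0.42), and with the mean of both probes the difference was 0.83 (adjusted p = 0.401). Pdcd1lg2, which encodes the PD-1 ligand PD-L2, had -1.08 (SE 0.21, adjusted p = 0.155) and fell with the block (0.0392), with -3.13, -3.62 and -3.48 in treated and -2.0, -2.52 and -2.44 in untreated cells. Cd274, which encodes the other PD-1 ligand PD-L1 and was singled out after its values were seen, had -1.41 (SE 0.21, adjusted p = 0.0775, and 0.106 with the block).

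Of the CD28 ligands, Cd80 had -0.10 (SE 0.33) and Cd86 0.08 (SE 0.17), each with an adjusted p of 1. The chromosomal neighbours of Cd28 are its relatives Ctla4 at 0.05 (SE 0.54) and Icos at 0.05 (SE 0.26), and neither passed. Of 18 tested genes of the CD28 signal relay, 0 passed without the block and 1 was higher with it, and the median was -0.04. Those that passed in neither fit include the signalling genes Akt1 at 0.02 (SE 0.18) and Grb2 at -0.07 (SE 0.16).

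S1pr1, the receptor that CD69 holds back from the cell surface, differed in the direction opposite to Cd69. Its level was -0.03, -0.18 and -0.78 in TGF-β1 harvests 1, 2 and 3, against -2.15, -1.70 and -2.33 in untreated harvests 1, 2 and 3. All treated arrays were above all untreated ones, by 1.73 log2 units or 3.32-fold in the fit (SE 0.26, adjusted p = 0.0778, and 0.0392 with the replicate block). It also passed in the authors' deposited matrix values (adjusted p = 0.0415), and over 15 alternatives the adjusted p ran from 0.0392 to 0.642. Klf2, a transcription factor known to drive S1pr1 in T cells, had 0.05 (SE 0.20, adjusted p = 1), and Clec2d, a C-type lectin gene beside Cd69, had -0.66 (SE 0.31, adjusted p = 0.98). Of the 19 genes in this list of activation markers and S1P receptors, S1pr1 was the 1 that passed with the block, and Myb, a progenitor transcription factor and the brightest of the list after Klf2, had -0.62 (SE 0.15, adjusted p = 0.282).

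The members resembled each other over the 6 arrays, with Pearson correlations from 0.825 for Il15 and Cd69 to 0.971 for Ccl4 and Cd28. These values rest on arrays that share harvests and on a treatment difference that the choice of members fixed. Outside the 5, the genes most like Ccl4 over the 6 arrays were Cited2 (r = 0.991), Cyria (0.982) and Cytip (0.980), and those most like Cd28 were Cytip (0.997), the gene of the pro-apoptotic protein Noxa, Pmaip1 (0.996), and the transcriptional repressor Gfi1 (0.996). Cytip, which encodes a cytohesin-binding protein of blood cells, was the 1 gene on 2 of these lists, with a log2 difference of -1.13 (SE 0.15). Since likeness to a member carries the treatment difference with it, the values of these genes are given without a test.

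Il15 was matched by Edem3 (0.995), Cnksr3 (0.995) and the polysialyltransferase gene St8sia4 (0.988), with log2 differences of -0.57, -0.58 and -1.74. Ccl3, whose fall varied by harvest, was followed by Zeb2 (0.987), a zinc-finger repressor, Kctd12b (0.981) and the thrombomodulin gene Thbd (0.977), with -1.21, -0.89 and -0.90. Closest to Cd69 were the orphan receptor gene Gpr171 (0.995), Calhm6 (0.986) and Napepld (0.971), with -0.69, -0.79 and -0.83.

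**Figure D5:**
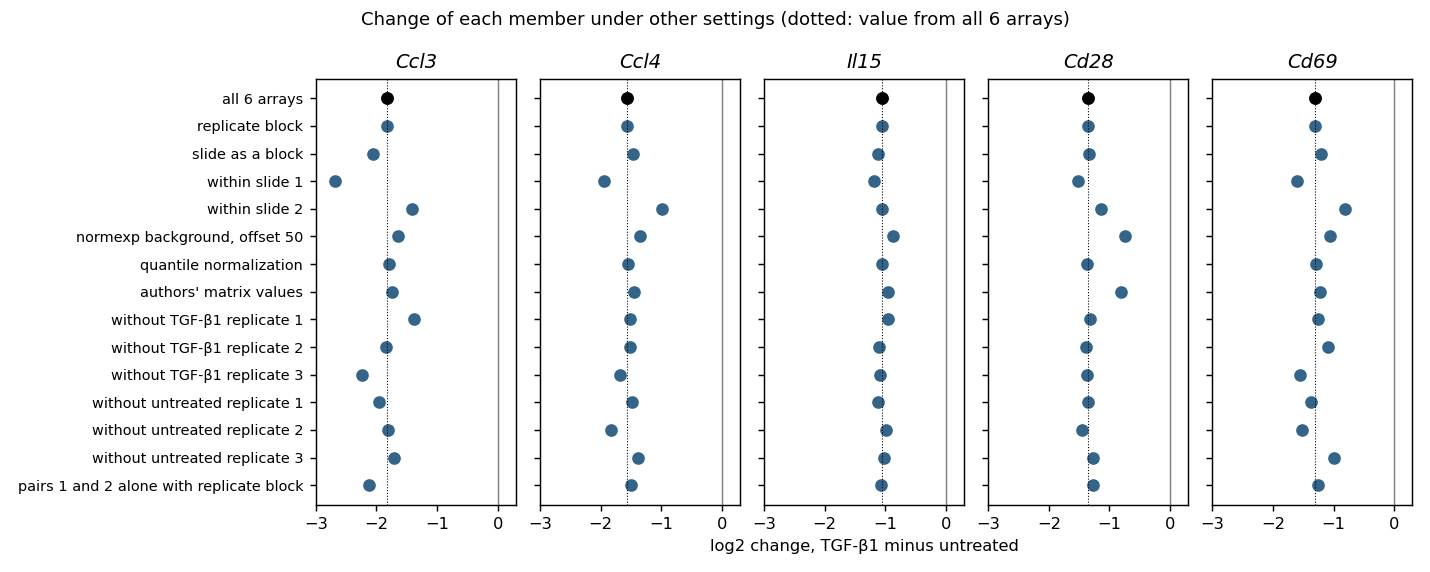
Log2 difference of each gene, TGF-β1 minus untreated, from all 6 arrays (black) and under other blocks, slides, background corrections, normalizations and array sets (blue), with the dotted line at the value from all 6 arrays. Every point is below 0, from -2.69 for Ccl3 within slide 1 to -0.75 for Cd28 with normexp.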

How the data were processed

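The deposited scanner files hold the Cy3 intensity of each spot on 1-colour Agilent arrays (design 014868, mm8), with the software Feature Extraction (version 10.1.1.1), per the file headers. In these deposited files the processed intensity is background-subtracted and spatially detrended, and not scaled between arrays. Flags in the deposited files mark outlier spots (43 to 101 per array), saturated spots (0) and spots well above background, and are read here as other values of 0 or 1. The deposited series matrix holds the authors' log2 values, made with limma per the submitters' processing notes, with steps not given in the sources used here. Its columns correlate with the log2 median spot signal at 0.99951 to 0.99989, their medians are 7.383 to 7.417, and 12 rows are empty. Whether its values are background-subtracted is not stated.

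Levels are log2 of the processed signal minus that of the array's 75th percentile (794.236 to 1030.83 units), averaged over unflagged spots. Of 41174 probes, 36345 were complete and well above background on at least 3 arrays (82.8% to 90.3% per array). Probes were named by RefSeq accession (23374 probes, 16535 symbols, GRCm38.p6 table), and the brightest probe stood for a gene. All contrasts used lmFit and eBayes of limma (version 3.58.1, R 4.3.3), and p-values were adjusted over all 29163 tested features by the Benjamini-Hochberg method. Same-numbered arrays deviated together (r 0.557 to 0.786, against -0.736 to 0.0712 otherwise) and the series design names independent harvests, so numbers pair the samples. The labels do not say that harvests were separate cultures, so p-values measure the spread between these arrays.

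The members and lists were chosen with earlier results of these data known. Named genes are the members, list genes past the threshold in either fit and the 2 brightest of each list, the brightest marker of each cell type, and the 3 genes most correlated with each member among those with an SD of at least 0.5 times its own. Direct partners and neighbours (Ccr1, Il15ra, Il2rb, Il2rg, Cd80, Cd86, Ctla4, Icos, Clec2d, Wfdc18, Inpp4b, Zfp330), Tnf, Il1b, Cd274, Lat, Gzmb, Klrb1c, Kit, Gata2, Il6st, Lhx2 and genes differing between harvests were added with values in view. The scanner files used here have no mean signal column, so normexp (offset 50) used the median signal. Some list genes are counted but not reported here by name.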

Additional observations from a re-analysis of the deposited data

How the results depend on the processing

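The direction of all 5 members held in each of 17 alternatives, with ranges of -2.69 to -1.39 for Ccl3, -1.94 to -0.99 for Ccl4, -1.19 to -0.88 for Il15, -1.52 to -0.75 for Cd28 and -1.60 to -0.81 for Cd69. The alternatives reuse the arrays from which the members were chosen for their fall, so this is a description and not a test. Neither filter on dim probes, nor the mean of a gene's probes, nor the replicate block changed the difference of any member. Values moved by more than the spread between replicates within slide 1 for Ccl3 (-2.69), Ccl4 (-1.94) and Cd28 (-1.52), within slide 2 for Ccl4 (-0.99) and Cd28 (-1.15), with normexp for Il15 (-0.88) and Cd28 (-0.75), and in the authors' matrix values for Cd28 (-0.80); the cause was not tested. With normexp the median of all genes was -0.17, and relative to it the members had -1.48 (Ccl3), -1.18 (Ccl4), -0.72 (Il15), -0.59 (Cd28) and -0.90 (Cd69). Leaving out 1 array gave -2.24 to -1.39 for Ccl3, -1.83 to -1.39 for Ccl4, -1.13 to -0.95 for Il15, -1.45 to -1.27 for Cd28 and -1.55 to -1.0 for Cd69. The count of changed genes was 74 (66 higher, 8 lower), 5 with normexp, 172 in the matrix values, 196 with the replicate block and 7 to 24 without 1 array, where fewer arrays were used. Cd28, the 1 member called, lost its call with normexp, without any 1 array and in pairs 1 and 2 alone (0 members called), and with quantile normalization or slide as a block, where Il15 was called instead. In the matrix values 2 were called (Il15 and Cd28). The 906 genes that differed between harvests were 15925 with normexp, 1712 in the matrix values and 458 to 8312 without 1 array: 458 without untreated replicate 2, 501 without TGF-β1 replicate 2, 6629 without TGF-β1 replicate 3 and 8312 without untreated replicate 3. Pairs 1 and 2 alone, the slide beside the harvest and arrays left out of the harvest test were chosen after seeing the data. Among the members, list genes and markers named, the block changed the calls given above and no other. With 3 arrays per group, dim probes such as Cd28 and Ccr1 are limited by their signal over background.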
